A study of Daphnia magna with 30 samples.

Results

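Extreme long days (20L:4D) were compared with the long-day control (16L:8D) in whole *Daphnia magna* of experimental trial 2. All animals labelled with either photoperiod were taken, 12 of the 30 in the series, and the comparison asked which transcripts differed when the light phase was lengthened beyond the one in which the clone was cultured. Light lasted 20 h and darkness 4 h in the 20L:4D group, which gave 6 animals from 3 exposure chambers. In the 16L:8D group light lasted 16 h and darkness 8 h, and again 6 animals came from 3 chambers. The 2 animals of a chamber are called A and B here. All 12 were adult females, sampled at 21 days, of a single genotype raised from 1 individual, so the values describe 1 clone. They had entered their photoperiod as newborns from 16L:8D cultures, and water, food and temperature were alike in both groups. Each photoperiod had a box and a lamp of its own, and light regime and box cannot be told apart in these data. RNA came from single whole animals with the eggs or young in their brood pouches, taken soon after the lamps came on. A lower signal can therefore stand for fewer cells of a type or for less RNA per cell, and the values do not separate these.

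*Daphnia* reproduce clonally through females while conditions are good and use day length as a seasonal cue. In *Drosophila*, period protein (PER) belongs to the inhibitory arm of the circadian clock: it enters the nucleus with Timeless and represses its own transcription, and light resets the loop through the loss of Timeless. Whole animals also carry the moult cycle and the ovarian cycle, which in *Daphnia* run together, so that each brood follows a moult. Names of transcripts are those of the study's annotation, which covers 958 of the 14338 transcripts and gives 475 of them a protein name. Each entry used was listed under an experiment of the study. The paper states that it annotated the union of its pairwise results from both trials. The annotation was thus drawn, at least in part, from transcripts that responded in these animals. Counts over named transcripts are therefore not independent evidence of a direction. Names of tissues that a brooding female holds were checked in it. Both vitellogenin, both opsin and the endoglucanase and myosin transcripts were well above background on all 12 arrays, as were 4 of 5 cuticle transcripts, 1 of 2 actins and 2 of 6 vitelline or chorion transcripts. The single haemoglobin transcript was not above background on every array, and no transcript was named vasa, nanos or trypsin. A name missing from this annotation does not show that the array lacks such a probe. None of these marker transcripts was called in either direction, and their log2 changes lay between -1.03 and 0.52.

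Between 10568 and 12677 probes per array, 73.7% to 88.5%, were well above background on the 12 arrays, and no spot was saturated. A value is the log2 of the processed signal minus that of the array's 75th percentile, called the log2 signal below, and a transcript's probe is compared only with itself. The chamber was the unit, with the mean of its 2 animals as its value, and errors beside a mean are SDs over 3 chambers. The 12 arrays lay on 7 slides, of which 2 held both photoperiods.

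The animals of a photoperiod were not alike, and this touched most of what follows. Animals B of 20L:4D chambers 1 and 3 stood apart from the other 10. Over the 14239 transcripts with a value on every array, they lay 129 to 196 log2 units from each of the 10 (median 176, Euclidean distance), but 98.3 from each other, while the other 10 lay 62.2 to 159 apart (median 88.8). On the axis that held most of the spread within photoperiods (41.3%), they sat at 105 and 81.3, against -69.7 to 1.69 for the other 10. They were not alone there in the whole series. Animals 1B, 2A, 3A and 3B of 4L:20D lay at 99.5, 81.9, 99.2 and 103.9, and animal 1B of 8L:16D at 106.5. The remaining animals of the shorter days lay between -71.6 and 58.3. In 16L:8D, animal B of chamber 2 lay at -57.4 on the next axis (18.9% of the spread), against 7.79 to 80.5 for the other 11. On that axis the animals of 12L:12D lay between -73.9 and -35.4. Those of 4L:20D ranged from -77.9 to 50.8, and those of 8L:16D from -78.1 to 77.8. Of the 14338 transcripts, both 20L:4D animals lay above all 10 others for 1159 and below all of them for 2035. The pair was chosen for standing apart in these data. These counts and the transcripts named next therefore describe the pair and do not test it. Lower in the pair were prostaglandin-H2 D-isomerase (DM05714P4), aquaporin (DM03176P1), a water channel, and histone H2A (DM02525P1), with mean differences of -3.97, -3.23 and -3.02 on the log2 scale. Higher were angiopoietin-2 (DM05390P2) by 4.23, both glucose-6-phosphatase transcripts by 1.73 and 1.62, and glutamine synthetase by 1.38. Chambers 1, 2 and 3 of 20L:4D lay 92.6, 55.7 and 79.9 log2 units from the mean of the control, and on average 92.0, 110.2 and 85.1 from the other single chambers of their own photoperiod. The means of the photoperiods were 53.0 log2 units apart, and 79.7 without chamber 2 of 20L:4D, which was the largest distance among the 10 ways to divide those 5 chambers (one-sided exact permutation test, p = 0.1, the smallest this test can give). With all 6 chambers, p was 0.4. Where a call of a named transcript was lost without the animals standing apart, its change without them is given. Their part in a result was not tested beyond these values.

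**Figure D1:**
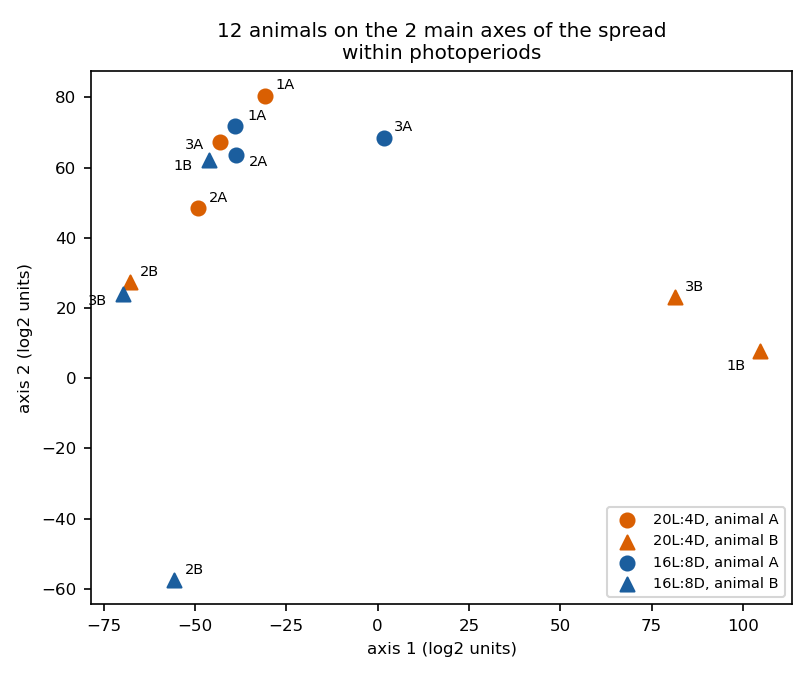
The 12 animals placed along axis 1 (x) and axis 2 (y) of the variation within photoperiods, in log2 units, labelled by chamber and animal, with 20L:4D in orange and 16L:8D in blue, animals A as circles and animals B as triangles. Animals 1B and 3B of 20L:4D sit at 105 and 81.3 on axis 1, where the other 10 lie between -69.7 and 1.69. Among these 12, animal 2B of 16L:8D sits alone at -57.4 on axis 2. Animals of the shorter days, some of which share these positions, are not drawn.

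No transcript differed between 20L:4D and 16L:8D after Benjamini-Hochberg adjustment over all 14338 transcripts in limma, where the smallest adjusted p was 0.609. At an unadjusted p under 0.05, 754 transcripts differed (5.26%), against 716.9 if none did. Of these, 320 also changed by at least 1.5-fold (2.23% of all transcripts), 167 higher (1.16%) and 153 lower (1.07%) in 20L:4D. These 320 are the transcripts called below. A call therefore marks a candidate, not a transcript that passed correction. Among them 156 were well above background on all 12 arrays and 9 on none. The median log2 change was 0.85 in those called higher and -0.81 in those called lower, and 97 changed at least 2-fold. Chamber means of the photoperiods did not overlap for 219 of the 320, and for 1379 of all transcripts (9.62%), 790 of them higher (5.51%) and 589 lower (4.11%) in 20L:4D. Where they do not overlap, a 2-sided exact permutation test over the 3 and 3 chambers gives its smallest possible p, 0.1. The additional threshold of the study's methods, a p under 0.01 for photoperiod over all 5, left 118 calls (0.823%), 74 higher (0.516%) and 44 lower (0.307%). Without chamber 2 of 20L:4D, the number called was 1053, with 263 of the 320 among them, and 477 by the study's thresholds. Without animals B of 20L:4D chambers 1 and 3, 264 were called and 64 passed the study's thresholds, and 91 of the 320 calls were shared. The sign was kept there by 315 of the 320. These had been chosen by their change in data that include all the animals of this alternative, so agreement in sign was largely set by that choice.

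**Figure D2:**
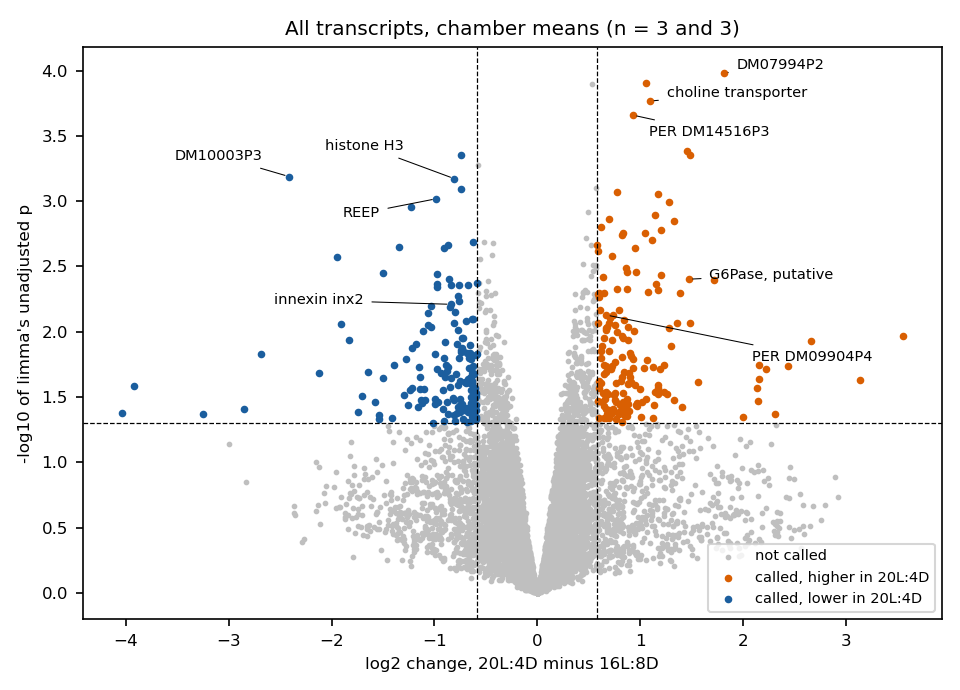
Every transcript by its log2 change (20L:4D minus 16L:8D, x axis) and the -log10 of limma's unadjusted p (y axis), with dashed lines at the thresholds of a call. The 167 transcripts called higher (orange) and the 153 called lower (blue) flank a cloud that holds the remaining transcripts, and several transcripts described in the text are labelled.

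Of 3 transcripts in the clock list, 2 were called higher and none lower, beside 1.16% and 1.07% of all transcripts. Among the 958 annotated transcripts, from which every list was drawn, 21 were called higher and 48 lower. Both annotated PER transcripts were higher in each chamber of 20L:4D than in any chamber of 16L:8D, and in 6 of 6 animals relative to the control mean. All animals were taken soon after the lamps came on, after 4 h of darkness in 20L:4D and 8 h in 16L:8D. The paper describes its PER values as early in a possible feedback cycle. Whether the level or the timing of such a cycle differed was not tested. The annotation table used here gives the name PER to a pair of probes. A further period transcript and a blue wavelength opsin that the study names are tied to no probe in that table and were not analysed here. The pair is printed because they report the finding from separate stretches of sequence. They share no run longer than 8 bases on the same strand or 4 on the opposite strand, and the files do not say whether they come from 1 gene or 2. Sequences are those of the study's annotation, in the order listed there, taken as 5′ to 3′, with no base singled out. The strand of the transcript is not given in the sources used here.
DM14516P3: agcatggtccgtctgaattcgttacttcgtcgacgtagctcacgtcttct
DM09904P4: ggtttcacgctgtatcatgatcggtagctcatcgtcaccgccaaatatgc

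The log2 signal of PER DM14516P3 was -3.72, -3.58 and -4.05 in the 3 chambers of 20L:4D, against -4.43, -4.85 and -4.85 in those of 16L:8D. All 6 chambers stood clear of each other by photoperiod, and the log2 change was 0.93, or 1.90-fold (standard error 0.178, limma's unadjusted p = 0.000219 and adjusted p = 0.629). PER DM09904P4 read -1.27, -1.34 and -1.30 in 20L:4D, against -1.71, -2.17 and -2.04 in 16L:8D, a log2 change of 0.67 or 1.59-fold (standard error 0.208, limma's unadjusted p = 0.00743 and adjusted p = 0.907). The chambers of 20L:4D were the tighter group for this probe, with an SD of 0.03, against 0.23 in 16L:8D. For DM14516P3 the lowest animal of 20L:4D, at -4.35, lay just below the highest of 16L:8D, at -4.34. For DM09904P4 the lowest animal of 20L:4D, at -1.48, stayed above the highest of 16L:8D, at -1.52. Without the animals standing apart, the changes were 0.93 and 0.73. Within the slides that held both photoperiods, DM14516P3 differed by 0.92 and 0.73 and DM09904P4 by 0.92 and 0.42. The call of DM14516P3 was lost only with the normexp background correction (0.50), among 23 alternatives. DM09904P4 lost its call with that correction (0.52), with slide as a block (0.55) and without chamber 2 of 16L:8D (0.57).

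The other day lengths did not set the PER transcripts apart in this way. With 4, 8, 12, 16 and 20 h of light, DM14516P3 averaged -4.58 ± 0.02, -4.77 ± 0.11, -4.65 ± 0.31, -4.71 ± 0.25 and -3.78 ± 0.24 (SD over chambers, n = 3 each). DM09904P4 averaged -2.22 ± 0.07, -2.40 ± 0.16, -2.18 ± 0.50, -1.97 ± 0.23 and -1.30 ± 0.03 over the same photoperiods. In both, the 3 chambers of 20L:4D lay above all 12 chambers of the other photoperiods, which held for 69 of all transcripts (0.481%) and for 9 of those called. A further transcript of the clock list, F-box/LRR-repeat protein (DM09476P2), was singled out after its values were seen. In *Drosophila* a member of this family of ubiquitin ligase subunits serves the removal of Timeless and cryptochrome. It was not called. Its chamber means were -0.92, 0.66 and -0.47 in 20L:4D, against 1.15, -0.30 and -0.19 in 16L:8D (log2 change -0.46, 95% interval -1.41 to 0.49), and the sign was opposite without the animals standing apart (0.27). Transcripts for light reception in the annotation showed no called difference. The rhodopsin-class receptors gprop1 (DM06155P2) and gprop2 (DM12611P4) had log2 changes of 0.11 (95% interval -0.22 to 0.43) and 0.10 (-0.33 to 0.53). Arrestin (DM03055P2), which quenches activated rhodopsin, had one of -0.20 (-0.47 to 0.08).

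**Figure D3:**
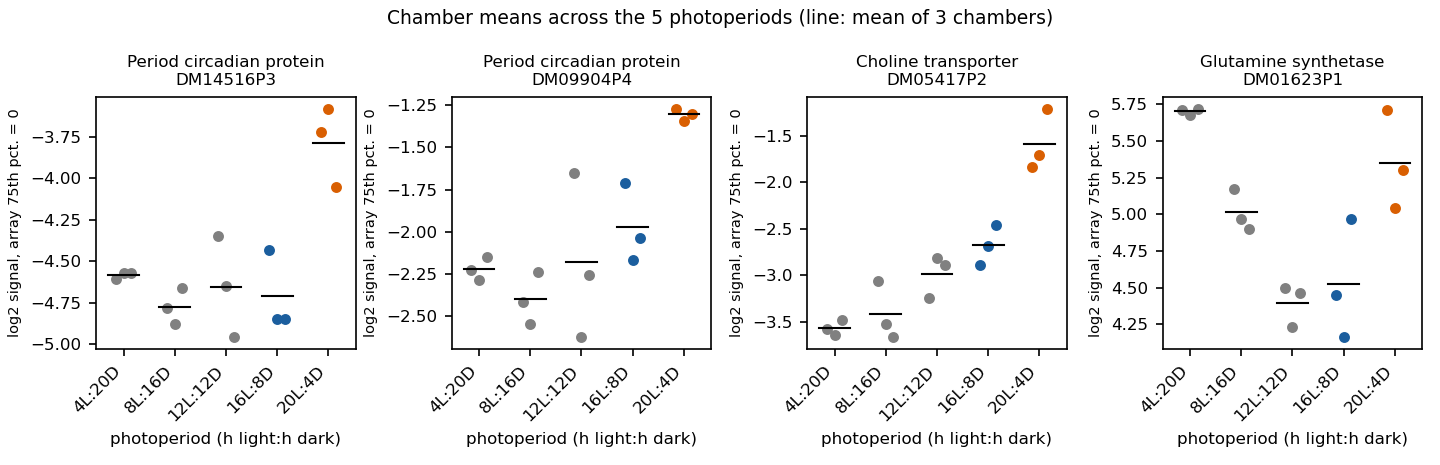
Chamber means of the log2 signal (y axis, 0 is the 75th percentile of the array) for both PER transcripts, the choline transporter and glutamine synthetase across the 5 photoperiods, with a line at the mean of 3 chambers. The 20L:4D chambers of both PER transcripts and of the choline transporter lie above every other chamber, while glutamine synthetase averages 5.70, 4.40 and 5.35 with 4, 12 and 20 h of light.

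Among transcripts for receptors, channels and transmitter handling, 1 of 8 was called higher and 3 were called lower. Called higher and lower were 1.16% and 1.07% of all transcripts, and 21 and 48 of the 958 annotated ones. The high-affinity choline transporter (DM05417P2), which returns choline to cholinergic nerve endings, was higher in 20L:4D. Its chamber means were -1.84, -1.71 and -1.21 in 20L:4D, against -2.89, -2.69 and -2.46 in 16L:8D. The photoperiods did not overlap, and the log2 change was 1.10, or 2.14-fold (standard error 0.204, limma's unadjusted p = 0.000171 and adjusted p = 0.614), higher in 6 of 6 animals. This call held in all 23 alternatives, between 0.77 and 1.22, and the slides with both photoperiods gave 1.03 and 1.52. With 4, 8, 12, 16 and 20 h of light its means were -3.57 ± 0.08, -3.42 ± 0.32, -2.99 ± 0.23, -2.68 ± 0.21 and -1.59 ± 0.33 (SD over chambers, n = 3 each), higher with each longer day. The step to 20 h was the one well beyond these SDs. Its probe is shown because the call held in every alternative.
DM05417P2: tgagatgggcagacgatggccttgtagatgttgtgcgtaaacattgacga

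Innexins build the gap junctions of invertebrates, and 2 of the 3 transcripts annotated as innexins were called lower in 20L:4D, each in 6 of 6 animals. The third, a partial inx2 (DM03078P1), averaged 1.84 in 20L:4D, against 2.31 in 16L:8D, and was not called (log2 change -0.47, standard error 0.229, limma's unadjusted p = 0.0628). Innexin inx2 (DM05167P3) read -2.70, -2.46 and -2.20 in the chambers of 20L:4D, against -2.03, -1.58 and -1.23 in 16L:8D. The change was -0.84 on the log2 scale, or 1.79-fold lower (standard error 0.253, limma's unadjusted p = 0.00616). Innexin shaking-B (DM03473P2), a neuronal innexin in *Drosophila*, read -0.29, -0.21 and 0.04 in 20L:4D, against 0.26, 0.54 and 1.07 in 16L:8D, a log2 change of -0.77 (standard error 0.252, limma's unadjusted p = 0.00961). Neither pair of photoperiods overlapped in chambers, and the order of the chambers, with chamber 3 highest, was the same for both transcripts in both photoperiods. With 4, 8, 12, 16 and 20 h of light, inx2 averaged -2.49 ± 0.24, -1.97 ± 0.40, -2.44 ± 0.28, -1.61 ± 0.40 and -2.45 ± 0.25, and shaking-B averaged -0.26 ± 0.23, 0.06 ± 0.45, -0.27 ± 0.24, 0.62 ± 0.41 and -0.15 ± 0.18 (SD over chambers, n = 3 each). In both, 20L:4D was near the means with 4 and 12 h of light, and 16L:8D had the highest mean of the 5 photoperiods. Without the animals standing apart the changes were -0.79 and -0.74. Within slides, inx2 differed by -1.28 and -0.39 and shaking-B by -1.38 and -0.39. The call of inx2 was lost with normexp (-0.54), and that of shaking-B without chamber 3 of 16L:8D (-0.55). The probes of the called innexins are shown because the transcripts moved together, and they share no run longer than 6 bases, or 7 on opposite strands.
DM05167P3: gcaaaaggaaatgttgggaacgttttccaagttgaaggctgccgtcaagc
DM03473P2: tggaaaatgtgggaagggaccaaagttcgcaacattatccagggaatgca

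The remaining called member, the class B secretin-type receptor GPRmth5 (DM14719P3), behaved otherwise. Its chamber means were -6.87, -5.17 and -6.33 in 20L:4D, against -5.07, -4.99 and -4.48 in 16L:8D (log2 change -1.28, standard error 0.458). The lowest animals were B of chambers 1 and 3 (-7.52 and -7.31), and without them the change was -0.74 and not called. The call was also lost without chamber 1 of 20L:4D, without chamber 3 of 16L:8D and with normexp (-0.06), and the change was -0.59, still called, where dim signals were raised to a floor, the dimmest of the array that passed background. The probe passed background in 4 animals of 20L:4D and in all 6 of 16L:8D.

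**Figure D4:**
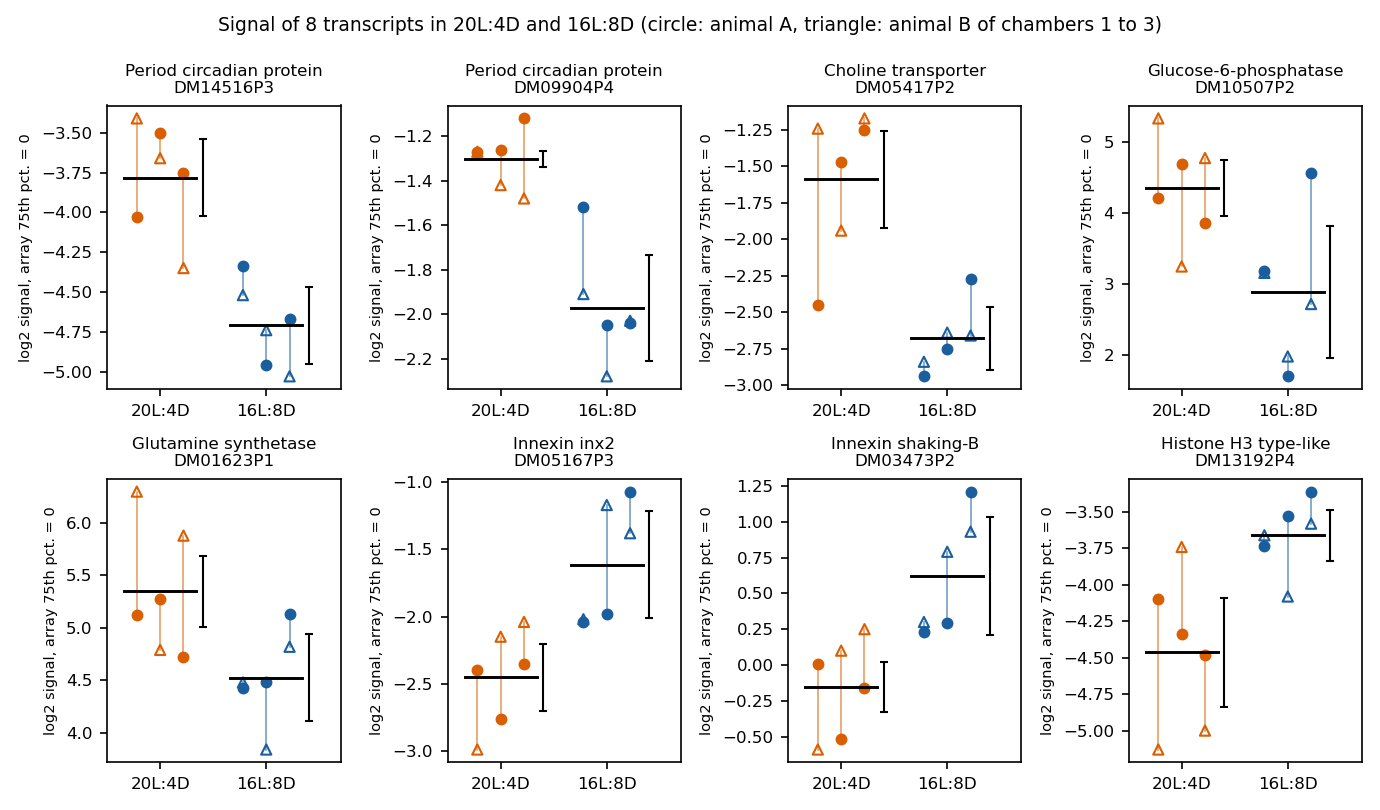
Log2 signal (y axis, 0 is the 75th percentile of the array) of 8 transcripts in the 6 animals of 20L:4D (orange, left) and of 16L:8D (blue, right), with the 2 animals of each chamber joined, the mean of 3 chambers as a bar and its SD beside it. In every panel 20L:4D and 16L:8D differ in chamber means without overlap, while animals B of 20L:4D chambers 1 and 3 are the highest for glutamine synthetase and the lowest for histone H3.

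Both glucose-6-phosphatase transcripts, glycogen debranching enzyme and glutamine synthetase were among the transcripts called higher. Glucose-6-phosphatase frees glucose from its phosphate at the end of glycogen breakdown and gluconeogenesis, and a pair of transcripts carries that name. The putative glucose-6-phosphatase DM10507P2 had chamber means of 4.77, 3.97 and 4.33 in 20L:4D, against 3.18, 1.84 and 3.64 in 16L:8D, and changed by 1.47 on the log2 scale or 2.77-fold (standard error 0.414, limma's unadjusted p = 0.00396 and adjusted p = 0.861). For glucose-6-phosphatase DM09565P2, the means were 2.39, 1.64 and 1.99 in 20L:4D, against 0.94, -0.38 and 1.55 in 16L:8D, a change of 1.30 or 2.46-fold (standard error 0.445, limma's unadjusted p = 0.0128). Chambers did not overlap in either, and chamber 2 was the lowest of its photoperiod in both transcripts and both photoperiods. The control varied more, with SDs of 0.94 and 0.99 in 16L:8D beside 0.40 and 0.37 in 20L:4D. Without the animals standing apart, the changes were 1.13 and 0.96, both still called. Slides that held both photoperiods disagreed: 1 slide with 1 animal of each gave -0.70 and -1.13, and the other with 2 of each gave 2.30 and 2.31, while with slide as a block the changes were 1.34 and 1.20. DM09565P2 lost its call without chamber 2 of 16L:8D (0.76), and DM10507P2 kept its own in every alternative. With 4, 8, 12, 16 and 20 h of light DM10507P2 averaged 4.19, 3.85, 2.91, 2.89 and 4.36, and DM09565P2 averaged 1.81, 1.49, 0.36, 0.70 and 2.00. In both, the mean of the longest day was near that of the shortest. The pair of probes is shown because both transcripts moved alike, and they share no run longer than 5 bases, or 6 on opposite strands.
DM10507P2: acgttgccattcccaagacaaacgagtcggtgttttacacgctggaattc
DM09565P2: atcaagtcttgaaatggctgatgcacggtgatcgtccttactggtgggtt

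Glycogen debranching enzyme (DM03734P1), which opens the branch points of glycogen, was called as well, at -5.63, -4.95 and -5.63 in 20L:4D, against -6.09, -6.15 and -6.14 in 16L:8D (log2 change 0.72, standard error 0.243). It was dim and passed background in 4 animals of 20L:4D and 1 of 16L:8D. Its call was lost with normexp (0.25), with the same floor on dim signals (0.36) and without chamber 2 of 20L:4D (0.50). Its means with 4, 8, 12, 16 and 20 h of light were -5.27, -5.39, -5.39, -6.12 and -5.40. The control thus had the lowest mean of the 5 photoperiods, and 20L:4D was near the shorter days. The debranching enzyme and both glucose-6-phosphatases were the called members among 20 transcripts for sugar and glycogen metabolism, none of which was called lower. Called higher and lower were 1.16% and 1.07% of all transcripts, and 21 and 48 of the 958 annotated ones. The list as a whole stayed near 0, with a median log2 change of 0.07, beside -0.02 over all transcripts. Glutamine synthetase (DM01623P1), which binds ammonia to glutamate and clears glutamate around neurons, had chamber means of 5.71, 5.04 and 5.30 in 20L:4D, against 4.45, 4.16 and 4.97 in 16L:8D. The change was 0.82, or 1.77-fold (standard error 0.206, limma's unadjusted p = 0.00182). Its highest values were those of animals B of 20L:4D chambers 1 and 3 (6.30 and 5.88), and without them the change was 0.43 and no longer called. With 4, 8, 12, 16 and 20 h of light it averaged 5.70, 5.01, 4.40, 4.53 and 5.35, lowest at 12 and 16 h like the glucose-6-phosphatases. The slides that held both photoperiods disagreed (-0.41 and 1.13). It was the called member among 4 glutamate transcripts, beside the shares of all and of annotated transcripts given for the sugar list.

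A few other named proteins were called higher. Low-density lipoprotein receptor-related protein (DM03506P1), of a family of endocytic receptors, was at 0.56, 0.44 and -0.27 in 20L:4D, against -0.81, -0.72 and -0.36 in 16L:8D (log2 change 0.87, standard error 0.251), and was called in all 23 alternatives. Its means with 4, 8, 12, 16 and 20 h of light were -0.15, -0.19, -0.85, -0.63 and 0.24. Cytochrome P450 305a1 (DM12027P2), of a family of oxidative enzymes, was at -4.05, -4.30 and -3.09 in 20L:4D, against -5.48, -5.13 and -4.35 in 16L:8D (log2 change 1.17, standard error 0.477). It passed background in 6 animals of 20L:4D, against 2 of 16L:8D, all 3 chambers of 20L:4D lay above the other 12 of the series, and 8 of 22 alternatives removed the call, among them leaving out chamber 3 of 20L:4D, chamber 1 or 2 of 16L:8D, or the animals standing apart (0.94). Called higher and lower were 1.16% and 1.07% of all transcripts, and 21 and 48 of the 958 annotated ones. Among the 19 detoxification transcripts this cytochrome was the 1 called higher, and 1 was called lower. This was a glucosyl/glucuronosyl transferase (DM13159P2), of a family that conjugates sugars to foreign compounds, with a log2 change of -1.30, and it passed background in 1 animal of 20L:4D, against 3 of 16L:8D. Its call was lost in 7 of 22 alternatives, among them the floor on dim signals (-0.17), normexp (0.07), leaving out the animals standing apart (-1.12), and leaving out chamber 1 or 3 of 20L:4D or chamber 1 or 2 of 16L:8D.

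Transcripts for chromatin were lower in 2 of the 3 chambers of 20L:4D. Of 9 such transcripts, 3 were called lower and none higher, beside 1.07% and 1.16% of all transcripts and 48 and 21 of the 958 annotated ones. All 9 changes were below 0, as were 53.2% over all transcripts, and the median was -0.67 (-0.55 without the animals standing apart). Histone H3 (DM13192P4), a core of the nucleosome, read -4.61, -4.04 and -4.74 in 20L:4D, against -3.70, -3.81 and -3.47 in 16L:8D (log2 change -0.81, standard error 0.177, limma's unadjusted p = 0.000673 and adjusted p = 0.839). Without animals B of chambers 1 and 3 its change was -0.55, under 1.5-fold, and with normexp it was -0.12 and not called. Histone H2A (DM02525P1) overlapped between photoperiods, at 0.91, 3.25 and 0.62 in 20L:4D, against 3.33, 2.56 and 3.39 in 16L:8D, and chamber 2 of 20L:4D lay within the control. Its log2 change of -1.50 (standard error 0.573) became -0.87 without those animals, no longer called, and -2.33 without chamber 2 of 20L:4D. The call was also lost without chamber 1 or 3 of either photoperiod. Histone H2B (DM02150P3) read -4.26, -4.10 and -5.08 in 20L:4D, against -3.86, -3.98 and -3.59 in 16L:8D (log2 change -0.67, standard error 0.247), and lost the call without chamber 3 of either photoperiod and with normexp (-0.09). By chamber, the median of the 9 transcripts relative to the control mean was -0.83, 0.06 and -1.08 in chambers 1 to 3 of 20L:4D, against -0.02, -0.17 and 0.19 in 16L:8D. With the normexp correction, which moved the median over all transcripts to 0.12, the list's median was -0.12. With 4, 8, 12, 16 and 20 h of light, histone H3 averaged -4.56, -4.40, -4.40, -3.66 and -4.46. Over the same photoperiods H2A averaged -0.16, 0.58, 0.82, 3.09 and 1.59, and H2B averaged -4.14, -3.99, -4.19, -3.81 and -4.48. In each, 16L:8D had the highest mean of the 5 photoperiods. The mean of 20L:4D lay among those with 4, 8 and 12 h for H3, above them for H2A and below them for H2B.

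The same split by chamber ran through the transcripts for genetic information processing. These were 108 transcripts in 7 lists, covering the proteasome, chaperones, ribosome biogenesis, translation, the spliceosome, RNA transport and decay, and DNA replication and repair. Of them, 96 had a log2 change below 0 (53.2% of all transcripts did), and the median was -0.26. Called lower were 4 and higher none, beside 1.07% and 1.16% of all transcripts and 48 and 21 of the 958 annotated ones. The share called lower was thus not above that of the annotated transcripts. In the 25 proteasome and ubiquitin transcripts, which serve protein breakdown, the chamber medians relative to the control mean were -0.47, 0.03 and -0.32 in chambers 1, 2 and 3 of 20L:4D, against -0.03, 0.01 and 0.04 in 16L:8D. The 21 spliceosome transcripts gave -0.48, 0.29 and -0.52 in 20L:4D, against 0.09, -0.03 and -0.08 in 16L:8D. Ribosome biogenesis (19 transcripts) and translation (17) repeated the pattern, with -0.43, 0.11 and -0.32, and -0.48, 0.08 and -0.39, in 20L:4D, against values within -0.09 and 0.09 in 16L:8D. Chamber 2 of 20L:4D was thus at or above the control, and chambers 1 and 3 below it. Within these chambers the animals differed: the proteasome median was -0.68 and -0.52 in animals B of chambers 1 and 3, and -0.27 and -0.12 in animals A of the same chambers. Over the 25 transcripts the median change was -0.27 with all animals, -0.12 without those animals B and -0.41 without chamber 2, and for the spliceosome it was -0.28, -0.14 and -0.49. The same medians were -0.20, -0.01 and -0.36 for ribosome biogenesis and -0.26, -0.12 and -0.44 for translation.

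**Figure D5:**
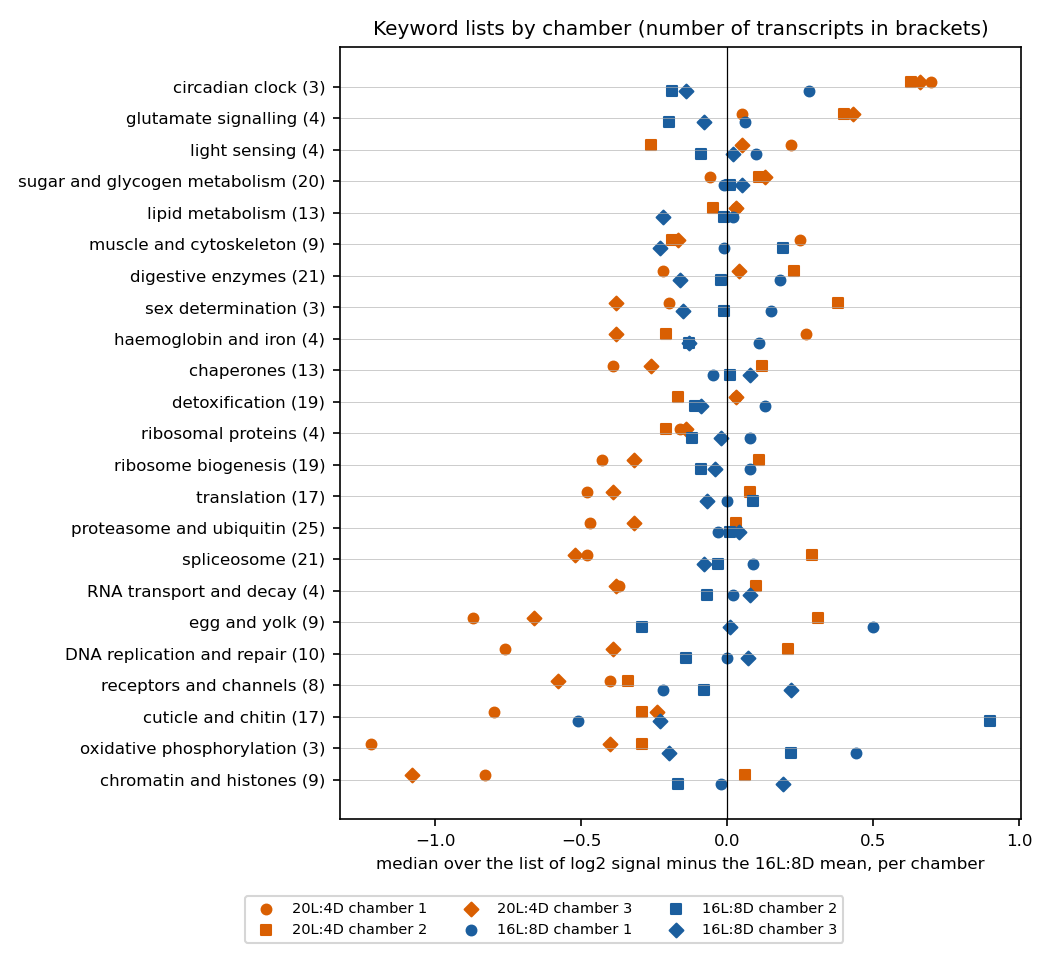
For each keyword list (rows, number of transcripts in brackets), the median over its transcripts of the log2 signal minus the mean of 16L:8D (x axis, log2 units), in each chamber of 20L:4D (orange) and of 16L:8D (blue). In the lists for genetic information and for chromatin, chambers 1 and 3 of 20L:4D lie below 0 and chamber 2 near or above it, while for the clock list all 3 chambers lie between 0.63 and 0.70.

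The called members of these lists were few. Proteasome 26S non-ATPase subunit 7 (DM00523P4), of the lid that trims ubiquitin from substrates, was at -4.76, -4.07 and -4.64 in 20L:4D, against -3.93, -3.79 and -3.48 in 16L:8D. It changed by -0.76 (standard error 0.216, limma's unadjusted p = 0.00435), lower in 6 of 6 animals, and lost the call only with normexp (-0.04). The others were a nucleolar GTP-binding protein (DM06651P1), which acts in ribosome assembly, with a change of -0.63, a subunit of translation initiation factor 2 (DM03553P1), which brings the initiator tRNA, with -0.60, and cell division cycle 5 protein (DM14146P1), placed by keyword alone in the list for DNA replication and repair, with -0.81. These 3 were called in 18, 7 and 12 of 23 alternatives. The changes of DM06651P1 and DM03553P1 turned to 0.08 and 0.06 with normexp, and those of DM03553P1 and DM14146P1 were -0.47 and -0.05 without the animals standing apart, neither of them called. In lists without a called member, the transcript with the smallest p had a log2 change of -0.96 (95% interval -1.95 to 0.03) for a subunit of the chaperonin that folds actin and tubulin (DM06452P2), of -0.67 (-1.35 to 0.02) for the nuclear pore protein Nup160 (DM09216P3) and of -0.39 (-0.72 to -0.06), under 1.5-fold, for heterogeneous nuclear ribonucleoprotein A3 (DM11662P4). The chaperonin probe passed background in 1 animal of each photoperiod, so its difference is one between mostly dim signals, and it was -0.10 with the floor and 0.14 with normexp. Nup160 passed in 3 animals of 20L:4D and 6 of 16L:8D, with -0.42 and 0.14 in those alternatives. Among 4 ribosomal proteins it was 0.28 (0.01 to 0.55) for a transcript that the annotation matched to a small-subunit protein (DM00119P1). RNA polymerase II-associated protein (DM14623P1) was called lower by -1.34 (standard error 0.347). It read -5.68, -4.56 and -6.24 in 20L:4D, against -3.98, -4.27 and -4.22 in 16L:8D, with background passed in 3 animals and in 6. Its call was lost only with normexp (-0.07). With 4, 8, 12, 16 and 20 h of light it averaged -6.07, -5.57, -5.38, -4.15 and -5.50. Proteasome subunit 7 averaged -4.65, -4.39, -4.52, -3.73 and -4.49 over the same photoperiods. In both, 16L:8D had the highest mean of the 5 photoperiods, and 20L:4D lay among the means with 4, 8 and 12 h.

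Transcripts of the egg and of the cuticle varied widely among the animals of a photoperiod. None of the 9 egg and yolk transcripts was called. Their median relative to the control mean was -1.80 and -1.30 in animals B of 20L:4D chambers 1 and 3 and between 0.26 and 0.58 in the other 4 animals of 20L:4D, against -1.09 in animal B of 16L:8D chamber 2 and -0.50 to 0.52 in the other 5 of 16L:8D. The median change was -0.30, and 0.34 without those animals of 20L:4D. Vitelline membrane outer layer protein 1 (DM06044P1) had the smallest p of the list, with 4.11, 4.21 and 4.57 in 20L:4D, against 4.25, 3.74 and 4.08 in 16L:8D (log2 change 0.27, 95% interval -0.18 to 0.73). Of 17 cuticle and chitin transcripts, 15 had a log2 change below 0, beside 53.2% of all transcripts, and the median was -0.55. Among them 1 was called lower and none higher, beside 1.07% and 1.16% of all transcripts and 48 and 21 of the 958 annotated ones. The median of the 17 was 2.61 in animal B of 16L:8D chamber 2 and -0.56 to 0.05 in the other 5 of that group, beside -0.89 to 0.04 in 20L:4D. Without that control animal the median change was -0.19. The called member, a collagen IV alpha 1 chain-like transcript (DM12010P3) of the basement membrane, was at -6.49, -5.68 and -6.61 in 20L:4D, against -5.57, -4.10 and -4.85 in 16L:8D (log2 change -1.42, standard error 0.635), with the same animal highest (-2.09). All 3 chambers of 20L:4D lay below the other 12 of the series for it, as for 19 of all transcripts (0.133%). It passed background in 1 animal of 20L:4D, against 3 of 16L:8D, and 12 of 23 alternatives removed the call, among them normexp (-0.17), the floor (-1.06) and leaving out that control animal together with the 20L:4D animals standing apart (-0.80).

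Other named groups gave few calls or none. The respiratory chain list held 3 transcripts, all with changes below 0, as had 53.2% of all transcripts. Of the 3, 2 were called lower, beside 1.07% of all transcripts and 48 of the 958 annotated ones. Cytochrome c oxidase polypeptide VIII (DM14672P4) was at -2.04, -1.60 and -0.42 in 20L:4D, against 1.45, 1.28 and -1.67 in 16L:8D, and its change of -1.71 (standard error 0.699) came with a control whose chamber 3 lay among the chambers of 20L:4D. The mitochondrial NADH dehydrogenase subunit 6 (DM08403P3) read -0.12, 0.81 and 0.70 in 20L:4D, against 1.09, 1.31 and 0.90 in 16L:8D (log2 change -0.64, standard error 0.283), and was called in 14 of 23 alternatives, but not without the animals standing apart (-0.55). Flotillin-2 (DM00331P3), a membrane scaffold protein, had the same chambers high as the oxidase, with -0.51, -0.14 and 0.67 in 20L:4D, against 2.60, 1.60 and -0.02 in 16L:8D (log2 change -1.39, standard error 0.507). Within slides both disagreed in sign, at 1.83 and -2.90 for the oxidase and 1.56 and -2.96 for flotillin-2. Both lost the call without chamber 1 or chamber 2 of 16L:8D, without chamber 1 of 20L:4D, and without animals B of chambers 1 and 3 of 20L:4D (-1.57 and -1.14), and the oxidase also without chamber 2 of 20L:4D. Across 4, 8, 12, 16 and 20 h of light the oxidase averaged -1.49, -1.30, -0.40, 0.35 and -1.36, and flotillin-2 averaged -0.29, -0.52, -0.53, 1.39 and 0.01. In both, 16L:8D had the highest mean of the 5 photoperiods. Receptor expression-enhancing protein (DM10381P1), a shaper of the endoplasmic reticulum, was lower in 20L:4D, at -1.61, -2.26 and -2.18, against -0.60, -1.08 and -1.41 in 16L:8D (log2 change -0.98, standard error 0.226, limma's unadjusted p = 0.000959). Without the animals standing apart its change was -0.60 and not called. With 4, 8, 12, 16 and 20 h of light it averaged -2.25, -2.36, -2.23, -1.03 and -2.01. The control thus had the highest mean of the 5 photoperiods, and 20L:4D was near the shorter days. Extra macrochaetae-like protein (DM15244P1), in *Drosophila* an inhibitor of neural helix-loop-helix factors, was at -5.42, -3.72 and -6.21 in 20L:4D, against -3.86, -3.91 and -4.09 in 16L:8D, a log2 change of -1.16 (standard error 0.498), and 13 of 23 alternatives removed its call, among them normexp (-0.06), the floor (-0.71) and leaving out the animals standing apart (-0.58). A transcript that the annotation matched to troponin I (DM06174P3), part of the calcium switch of muscle, was called lower, with a log2 change of -0.64 (standard error 0.246). Its chamber means were 4.69, 3.63 and 4.04 in 20L:4D, against 4.91, 4.67 and 4.68 in 16L:8D, and the photoperiods overlapped. Its call was lost in 4 of 23 alternatives. Among these were leaving out chamber 2 (-0.39) or 3 (-0.60) of 20L:4D and chamber 1 of 16L:8D (-0.56). The value of 20L:4D chamber 1 is that of animal B alone, since the spot of animal A was an outlier. No member was called among 21 digestive enzymes, 13 lipid metabolism transcripts, 4 for haemoglobin and iron or 3 for sex determination. Leading these by p were a putative chymotrypsin (DM04058P1) with a log2 change of 0.60 (95% interval -0.04 to 1.25), carnitine O-palmitoyltransferase 1 (DM02418P1), which takes fatty acids into mitochondria, with 0.50 (-0.13 to 1.14), the iron store ferritin (DM01902P1) with 0.44 (-0.12 to 1.01) and transformer-2 (DM11280P1) with -0.21 (-0.73 to 0.31).

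Most called transcripts had no name. Of the 320, 69 were in the annotation and 33 carried a protein name, 10 higher and 23 lower. The smallest p of all was that of DM07994P2, at -4.47, -5.46 and -4.47 in 20L:4D, against -7.14, -6.27 and -6.44 in 16L:8D, a log2 change of 1.82 (standard error 0.32, limma's unadjusted p = 0.000105 and adjusted p = 0.609). It passed background in 5 animals of 20L:4D, against 1 of 16L:8D, and was higher in 6 of 6 animals. Most control signals were thus near background, and the change was 0.95 with the floor on dim signals, still called, and 0.49 with normexp, the one alternative that removed the call. DM14186P3 read -2.17, -2.85 and -2.48 in 20L:4D, against -4.20, -3.66 and -4.01 in 16L:8D (log2 change 1.46, standard error 0.302), well above background on all 12 arrays and called in every alternative. DM05984P3, DM15153P2, DM10572P2, DM07053P2, DM05648P2 and DM06170P1 were higher by 1.49, 1.28, 1.18, 1.14, 0.77 and 0.69 on the log2 scale. Without the animals standing apart these changes were 1.90, 0.54, 0.35, 0.15, 0.63 and 0.26, and DM15153P2, DM10572P2, DM07053P2 and DM06170P1 were no longer called. DM05984P3 passed background in 5 animals of 20L:4D, against 2 of 16L:8D, and its change was 0.76 with the floor and 0.41, not called, with normexp. Lower by a steady margin was DM10613P3, at 0.21, 0.03 and -0.11 in 20L:4D, against 0.81, 0.66 and 0.90 in 16L:8D (log2 change -0.74, standard error 0.167), in 6 of 6 animals and in all 23 alternatives. DM14651P1, DM14703P3, DM08787P1 and DM01389P2 changed by -0.75, -0.87, -0.90 and -0.62. With normexp all 4 lost the call, at 0.00, 0.04, 0.02 and -0.50. With the floor DM14703P3 and DM08787P1 lost it as well (-0.54 and -0.52), and without the animals standing apart DM08787P1 and DM01389P2 did (-0.54 and -0.51). DM01389P2 lost it in 5 of 23 alternatives, one of them without chamber 2 of 16L:8D. In all these unnamed transcripts the control was the extreme of the 5 photoperiods. Its mean was the lowest where 20L:4D was called higher and the highest where 20L:4D was called lower. Across 4, 8, 12, 16 and 20 h of light, DM14186P3 averaged -2.14, -3.22, -2.80, -3.96 and -2.50, and DM07053P2 averaged -1.61, -1.87, -1.64, -3.02 and -1.88.

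The unnamed transcripts DM10003P3 and DM13316P1 took either a high or a low value in single animals. DM10003P3 changed by -2.41 (standard error 0.529). It passed background in 2 animals of 20L:4D, against 4 of 16L:8D, and the change was -1.68 with the floor and -0.71 with normexp, both still called. Its log2 signal was -1.82 in animal A of 20L:4D chamber 1 and -4.27 in animal A of chamber 3, and -5.93 to -7.65 in the other 4 of 20L:4D. In 16L:8D it was -2.19, -2.22, -2.62 and -0.04 in both animals of chamber 1 and animals A of chambers 2 and 3, and -5.75 and -6.23 in animals B of chambers 2 and 3. DM13316P1 divided the same animals, with -0.11 and -1.20 in animals A of 20L:4D chambers 1 and 3 and -4.06 to -4.82 in the other 4, and -0.17, 0.20, 1.08 and 0.07 in the same 4 animals of 16L:8D, against -3.98 and -4.43 in its other 2. Receptor expression-enhancing protein was lowest in the same 2 animals of 16L:8D (-2.09 and -2.16). Without animals B of 20L:4D chambers 1 and 3, DM10003P3 and DM13316P1 had log2 changes of -1.12 and -0.61, and neither was called. Across 4, 8, 12, 16 and 20 h of light, DM10003P3 averaged -6.36, -6.29, -6.61, -3.18 and -5.59. DM13316P1 averaged -4.17, -4.21, -4.15, -1.20 and -3.15. In both, the control had the highest mean of the 5 photoperiods, and 20L:4D lay between it and the shorter days.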

How the data were processed

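Total RNA of single animals was hybridized to a custom one-color Agilent array (15744 spots, 14338 *D. magna* probes). The authors scanned the arrays and deposited, for each, fluorescence intensities extracted with Agilent Feature Extraction, version 10.7.3.1 per the file headers and 9.5.1 per the labels. The processed intensity is background-corrected by that software. The authors also deposited a table of normalized log2 values, with the array's 75th percentile as scale and every probe centred on its median, which served as an alternative. Its columns, without 60 control rows, correlated at 0.99989 or more with the values used here once these were centred likewise, and their medians lay between -0.0862 and 0.154.

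Here, control spots and 188 outlier spots of 456240 were left out, log2 of the processed intensity was taken minus that of the array's 75th percentile, and spots of a probe were averaged. No probe was filtered. The 2 animals of a chamber were averaged, and limma (3.58.1, statmod 1.5.0, R 4.3.3) was fitted to the 15 chambers of all 5 photoperiods, which share 1 estimate of the spread, with the contrast 20L:4D minus 16L:8D and Benjamini-Hochberg adjustment over 14338 probes. P-values measure the spread between chambers of 1 box per photoperiod. A transcript was called at an unadjusted p under 0.05 and a change of at least 1.5-fold, after the methods of the study, which also ask for a p under 0.01 over photoperiods. The script was tested on simulated data. Python 3.11.15 with numpy 2.4.6, pandas 2.3.3, scipy 1.17.1 and matplotlib 3.10.9 did the rest.

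Named are the 10 higher and 10 lower calls with the smallest p among those whose chambers did not overlap and that were well above background on at least 6 arrays, the 8 higher and 8 lower calls of largest change with a protein name, in each keyword list the called members or else the member of smallest p, and every transcript named period, opsin or rhodopsin. Keywords were matched to names and best matches in the study's annotation, and accidental matches were removed. A list for hormone signalling matched no annotated transcript. Members, lists and tests were chosen with earlier results of these data known. Alternatives changed the unit, block, covariates, scaling, background correction (normexp with an offset of 50 on the median signal, the raw signal that the files hold), dim-probe handling, source and chambers. Leaving out animals that stood apart was chosen after seeing the data. Columns of the authors' own comparisons in the supplementary table were not used. Probe sequences come from that table, and their genome positions are not analysed here.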

Additional observations from a re-analysis of the deposited data

Results flagged for a closer look

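In 12 of 162 groups of 6 animals examined, the highest or lowest animal was separated from the rest by a larger part of the group's range than Dixon's 95% critical value for 6 samples. That value holds for 6 independent animals, while these came as 2 from each of 3 chambers. The groups also share animals, so no number expected by chance is given. Of the 12 groups, 2 were in 20L:4D. Flotillin-2 (DM00331P3) was at 1.48 in animal A of chamber 3, with a group median of -0.21, and DM14703P3 was at -7.06 in animal B of chamber 3, with a median of -5.31. The other 10 were in 16L:8D, and animal B of chamber 2 accounted for 8 of them. In it arrestin (DM03055P2) was at 4.13 (median 4.67), vitelline membrane outer layer protein 1 (DM06044P1) at 3.26 (median 4.15) and DM07053P2 at -2.0 (median -3.20). List medians of the same animal relative to the control mean were 2.61 for cuticle and chitin (group median -0.44), -0.39 for light sensing (0.02), -0.29 for RNA transport and decay (0.03) and -0.39 for chromatin and histones (0.08), and its position on the axis next to the main one was -57.4 (median 62.8). Animal A of 16L:8D chamber 3 was low for nucleolar GTP-binding protein (DM06651P1), at -4.33 (median -4.00), and for the translation list, at -0.27 (median 0.02).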

How the results depend on the processing

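No transcript passed adjustment in limma under any alternative, where the smallest adjusted p lay between 0.0659 (without chamber 2 of 20L:4D) and 0.993, against 754 transcripts at an unadjusted p under 0.05. The 320 calls became 140 with normexp, which also moved the median of all transcripts to 0.12, 97 at 2-fold, and 242 to 1053 when a chamber was left out. The highest of these was without chamber 2 of 20L:4D. The 118 calls by the study's thresholds became 63 with normexp, 53 with positions on both main axes as covariates, 181 with slide as a block, 56 at 2-fold, 82 to 477 without a chamber, 64 without animals B of 20L:4D chambers 1 and 3, 198 without animal B of 16L:8D chamber 2, and 75 without all 3 animals. Calls split 199 higher to 258 lower with slide as a block, 96 to 143 with chamber as a random block, 99 to 174 with photoperiod by replicate number, and 252 to 143 with only the 6 chambers, beside 167 to 153. That last fit gave no value for the study's thresholds, which need all photoperiods. Exposure replicate numbers did not pair the chambers (correlations of same-numbered deviations 0.0238, 0.137 and 0.172, and chamber 1 of 20L:4D correlated best with another number), and the replicate block gave 309 and 106 calls. The distance between photoperiods was 45.5 to 79.7 without a chamber, beside 53.0, with p from 0.1 to 0.9 (exact permutation test).

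Of the 43 called transcripts described, 6 were called under every alternative, and 23 lost the call with normexp, 21 without animals B of 20L:4D chambers 1 and 3 and 3 to 11 without a chamber. The sign turned with normexp for DM03553P1 (0.06), DM06651P1 (0.08), DM08787P1 (0.02), DM13159P2 (0.07), DM14651P1 (0.00) and DM14703P3 (0.04). It also turned for transcripts without a call: DM06452P2 and DM09216P3 (0.14 each with normexp), DM06155P2 (-0.03 with quantile normalization and without the 3 animals, -0.01 to 0.24 without a chamber), DM12611P4 (-0.07 with both axes, -0.02 without the 3 animals, -0.02 to 0.32 without a chamber), DM09476P2 (0.27 without animals B of 20L:4D chambers 1 and 3, -0.91 to 0.01 without a chamber) and DM11280P1 (-0.52 to 0.10 without a chamber). The cause was not tested. Of 529 list medians in alternatives, 41 moved by more than the spread between chambers. Signal over background limits 22 of the 43, which were not well above background on all 12 arrays.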
